A study of Drosophila melanogaster with 3 samples.

Results

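The 10 synaptic and neuronal genes described here are ChAT, VAChT, Syt1, nSyb, brp, elav, para, cac, dlg1 and beat-Ia. They were chosen by symbol, out of 13945 protein-coding genes on the arms that the peak lists cover. For each gene, every peak summit inside its annotated span or within 5 kb of either end was collected. Binding of pad (poils au dos), a zinc finger factor that represses proneural genes, was measured by chromatin immunoprecipitation and sequencing (ChIP-seq) with an antibody against GFP. All samples were whole adult Drosophila melanogaster females of unknown age, from 1 transgenic line, labelled pad-GFP, in which GFP is fused to the C terminus of pad. There was 1 group of 3 biological replicates, and chromatin was sonicated to a size range of 200 to 800. The labels name neither the promoter that drives the fusion protein nor the state of the native pad gene. Flies without the tag were not analysed here.

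The genes cover the steps of chemical signalling between neurons. Acetylcholine, the main excitatory transmitter of the fly brain, is made by choline acetyltransferase (ChAT) and loaded into vesicles by VAChT. Vesicles fuse when the SNARE protein nSyb and the calcium sensor Syt1 act at the active zone, a release site built on the scaffold protein brp, after the sodium channel para has carried the action potential and the calcium channel cac has opened. The set also holds the neuronal RNA-binding protein elav, the membrane scaffold dlg1, which also acts in epithelial polarity, and beat-Ia, a secreted immunoglobulin protein that lets motor axons leave their bundle. These are background facts, not results. Whole flies were used and no RNA was measured, so the cells in which a site was bound cannot be told apart, and the labelled material could not be checked by marker expression.

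The peaks that passed the authors' test of reproducibility between replicates, the irreproducible discovery rate (IDR), numbered 6659. They were exactly the strongest 6659 of the 30000 regions in the pooled list. Each replicate list also held 30000 regions. Signal is the authors' measure of peak strength, with a scale that is not stated, so peaks were ranked within a list, with rank 1 the strongest. Signal in the IDR list had a median of 498 and a lowest value of 264. Read depth is unknown, because the lists hold no read counts.

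IDR summits lay in or within 5 kb of 9 of the 10 genes, and para was the exception. The share over all coding genes was 57.9%. A summit within 250 bp of an annotated start site, called a promoter summit here, was found at ChAT, VAChT, Syt1, dlg1 and beat-Ia. These 5 of 10 genes stand beside 24.4% of all coding genes. In or within 5 kb of the 9 genes lay 18 distinct summits in 17 peaks, and all 18 had an overlapping peak in each of the 3 replicate lists. Of the 18, 17 overlapped a peak among the strongest 10000 of every replicate. IDR keeps peaks that agree between these same replicates, so such overlap follows largely from the selection. The share over all IDR peaks is not given here. The pair of strongest peaks, at beat-Ia and dlg1, had ranks 21 and 44 of 6659.

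**Figure D1:**
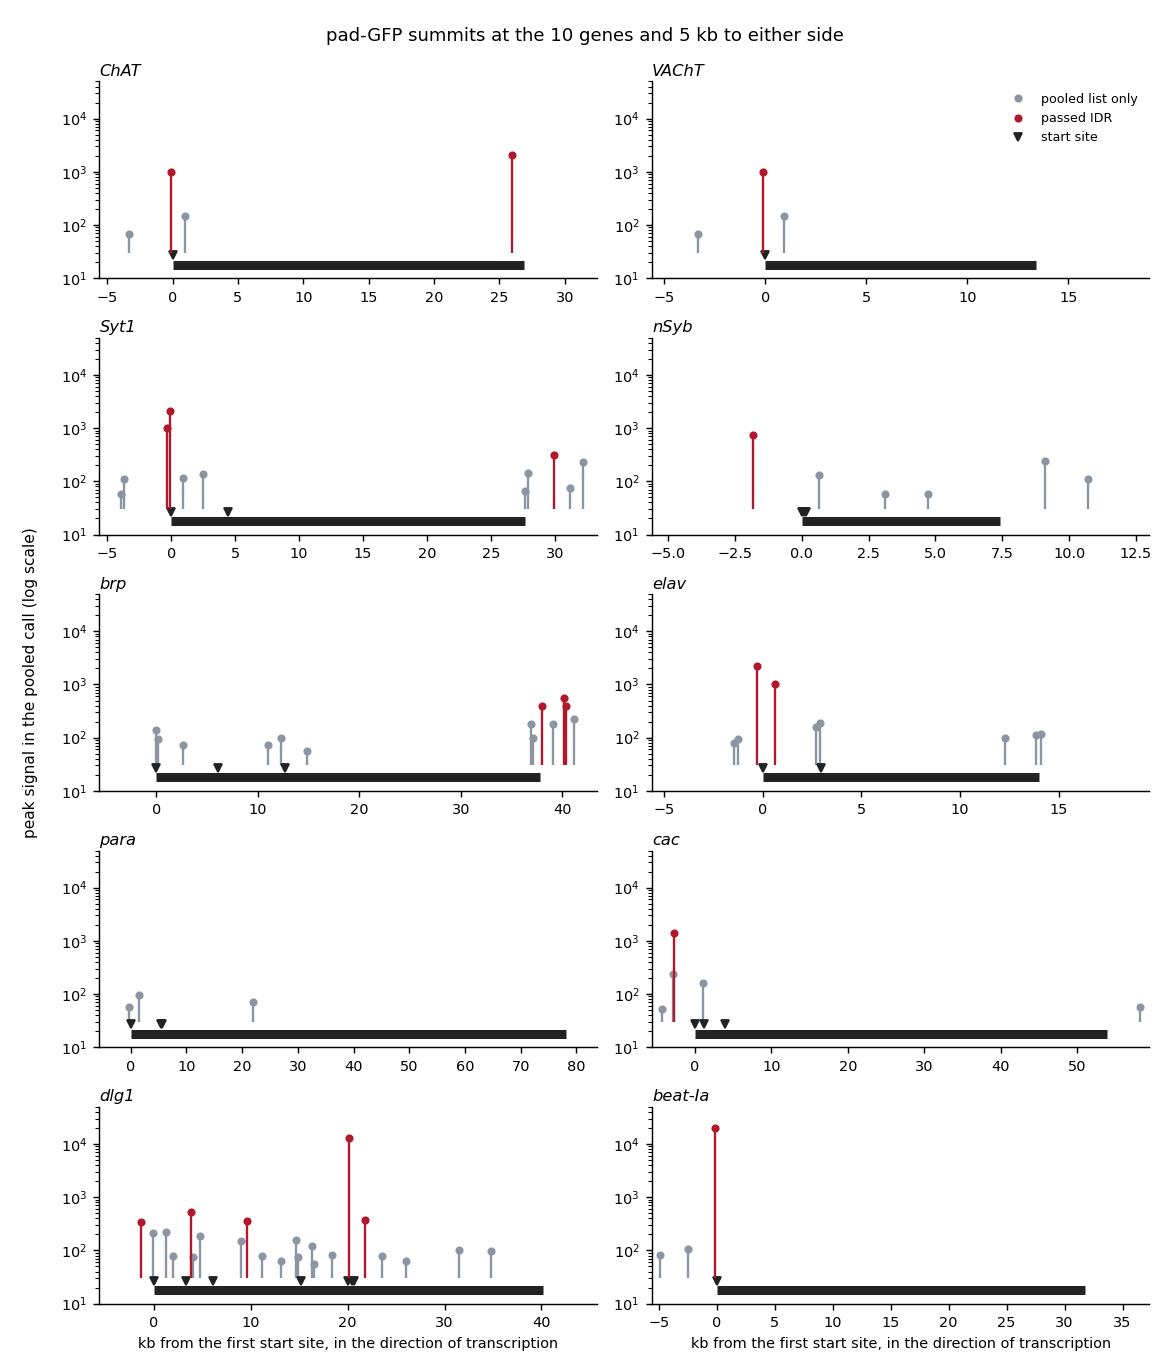
Summits in each gene and 5 kb to either side, with distance from the first start site in kb on the x axis and peak signal on a log scale on the y axis. Red points passed IDR, grey points are in the pooled list only, bars are gene spans and triangles are start sites. Grey points lie below the lowest IDR signal of 264 because the IDR list is the top of the pooled list, and no red point falls at para.

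The reference sequence is shown around summits near start sites, where the results at these genes turn. Each summit base with 50 bases to either side is printed 5′ to 3′ on the strand of the gene, from Release 6 of the fly genome (dm6). They are shown for the 4 distinct promoter summits, for the summit upstream of elav and for the summit nearest to cac. Capitals mark words that were searched for, on either strand.
beat-Ia, 2L:16049713-16049813, + strand: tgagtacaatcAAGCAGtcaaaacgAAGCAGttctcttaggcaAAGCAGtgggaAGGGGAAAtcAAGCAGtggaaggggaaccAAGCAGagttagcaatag
dlg1, X:11389811-11389911, + strand: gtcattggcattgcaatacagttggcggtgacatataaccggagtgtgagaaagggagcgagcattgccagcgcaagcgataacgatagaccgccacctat
Syt1, 2L:2800055-2800155, - strand: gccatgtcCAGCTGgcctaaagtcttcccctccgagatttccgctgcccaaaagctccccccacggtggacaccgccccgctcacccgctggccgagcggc
ChAT and VAChT, 3R:18705320-18705420, + strand: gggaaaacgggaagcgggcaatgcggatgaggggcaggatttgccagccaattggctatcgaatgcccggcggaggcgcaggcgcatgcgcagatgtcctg
elav, X:523436-523536, - strand: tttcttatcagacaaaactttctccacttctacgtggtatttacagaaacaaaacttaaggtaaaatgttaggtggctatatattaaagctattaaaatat
cac, X:11987762-11987862, - strand: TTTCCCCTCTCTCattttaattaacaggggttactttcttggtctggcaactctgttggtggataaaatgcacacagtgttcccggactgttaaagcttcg

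The beat-Ia window held 5 copies of AAGCAG, all on the strand printed. This word was chosen after the sequence had been seen. Of the 6659 IDR windows, beat-Ia's own included, 0.42% held at least 2 copies on 1 strand. Since the word was picked from this window, the count supports nothing about it. On either strand, AAGCAG occurred in 6.5% of IDR windows and in 2 of the 18 windows at these genes, the other being at brp. The word AGGGGAAA, which an earlier look at these data had found at summits, occurred at beat-Ia and cac, against 2.94% of all IDR windows. In the cac window it reads as the reverse complement and overlaps GAGAG, the core of sites for GAGA factor, a protein that opens promoters.

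GAGAG was present in 4 of the 18 windows against 20.8% of all IDR windows. The E-box word CAGCTG was in 1 of the 18, upstream of Syt1, against 5.99%, and the E-box word CACCTG was in 1, against 3.36%. No window held GAGCGAGA, TATCGATA or CAACACTG, which occurred in 3.62%, 2.21% and 2.91% of all IDR windows. At shares this low, absence from 18 windows says little. CAACACTG, like AGGGGAAA, had been found at summits in an earlier look at these data. A match is a description of letters and not evidence of a bound factor.

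Base composition ranged widely among these sites. The Syt1 window was 68.3% G or C and the ChAT and VAChT window 63.4%. Both were above 58.4%, the 95th percentile of all IDR windows, whose median was 42.6%. The windows at dlg1 and beat-Ia held 51.5% and 46.5%, while the elav window held 27.7%. The lowest of the 18 windows, at nSyb, held 24.8%.

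ChAT and VAChT form the cholinergic locus, in which VAChT lies within ChAT and both start at the same position, 3R:18705501. ChAT spans 26.8 kb on the + strand and VAChT 13.4 kb. One IDR peak, 3R:18705151-18705570, covered this start with its summit 131 bp upstream, at a signal of 995 and rank 1489. It ranked 1942, 1523 and 1171 in replicates 1, 2 and 3, a mean of 1545 ± 386 (SD, n = 3). The summit serves both genes and counts once among the 18.

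A stronger summit lay at the far end of ChAT, in its 3′ UTR. The peak at 3R:18731226-18731698 had a signal of 2027 and rank 602. In the replicates it ranked 767, 643 and 496, a mean of 635 ± 136 (SD, n = 3). It was stronger than the promoter peak in each of the 3 lists, and the ranges of ranks did not overlap. The nearest start site was that of CG14302, 1218 bp away, and no ChAT transcript starts there. Among pooled regions that did not pass IDR, ChAT had 2, and the one 931 bp inside the gene had a peak in all 3 replicate lists, at ranks 29126, 11499 and 15272.

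Syt1 encodes synaptotagmin, the calcium sensor that triggers fast vesicle fusion. The gene spans 27.7 kb on the - strand of 2L and has 2 start sites. One peak at 2L:2799883-2800470, 588 bp wide, held both upstream summits. The summit 126 bp upstream of the start used by 7 of 8 transcripts had a signal of 2067 and rank 583. The closest replicate summits lay within 5 bp of it and ranked 476, 832 and 393, a mean of 567 ± 233 (SD, n = 3). The summit 329 bp upstream had a signal of 1006 and rank 1463. Its closest replicate summits, within 3 bp, ranked 2320, 1696 and 959. The summit nearer to the start was the stronger in every replicate. The second start site, used by 1 transcript, had no IDR summit within 4 kb, and its nearest lay 4561 bp away.

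The last Syt1 summit lay 2277 bp past the end of the gene, at 2L:2769805-2770294. It had a signal of 309 and rank 5662, and was 16 bp from the start site of colt, which encodes a mitochondrial carnitine carrier. Its strongest overlapping peaks ranked 6369, 5570 and 5690 in the replicates. In replicate 3 the closest summit, 76 bp away, was a weaker one at rank 10632. This was the weakest of the 18 summits.

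nSyb encodes neuronal synaptobrevin, the vesicle SNARE protein. The gene spans 7.4 kb on the - strand of 3L and has 3 start sites close together. Its only IDR summit, in the peak 3L:1639455-1639746, lay 1823 bp upstream of the nearest nSyb start. The same summit was 136 bp from the start of Bgb, the beta subunit partner of Runt family transcription factors. The signal was 747 and the rank 2119. It ranked 1297, 2960 and 2501, a mean of 2253 ± 859 (SD, n = 3). Closer to nSyb, the pooled list held a weaker region 489 bp from a start, at rank 12944, below the IDR list. The strongest replicate peaks overlapping that region ranked 9009, 16390 and 9472. Among the strongest 10000, replicates 1 and 3 had a summit 516 and 668 bp from an nSyb start.

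brp encodes Bruchpilot, the ELKS family protein that builds the dense projection of the active zone. The gene spans 37.8 kb on the + strand of 2R. Its 3 IDR summits all lay past the 3′ end, at 245, 2370 and 2575 bp. The peak 2R:9543775-9544081 was the strongest, with a signal of 562 and rank 2937. It ranked 4238, 2668 and 2878, a mean of 3261 ± 852 (SD, n = 3). This summit and the one at 2575 bp fell in the 3′ UTR of CG1888, a gene on the opposite strand that ends next to brp. The first summit past the gene had a signal of 387.5 and rank 4426, and its replicate ranks of 8922, 3601 and 5833 were the more scattered.

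No IDR summit lay near a brp start site. The nearest upstream of the gene was 57833 bp away, nearest to the start of Camta, and the nearest to any brp start was 25359 bp away. The pooled list had a region 3 bp from the start used by 12 of 14 transcripts, at rank 12135. The replicates had regions 116, 196 and 233 bp from that start, at ranks 15148, 28419 and 19462. These lie below the strongest 10000 in each list.

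para encodes the voltage-gated sodium channel of the action potential. At 78.1 kb it was the longest of the 10 genes and the only one with no IDR summit in it or within 5 kb. Of 139 coding genes at least as long as para, 31.7% had none. The pooled list held 3 regions at para, the strongest at rank 17490. Of those 139 genes, 32 had 3 or fewer pooled regions, and the median was 16. In replicates 1, 2 and 3 the strongest region at para had rank 19998, 18068 and 26976. The 58 transcripts that share the main start site had no pooled region within 4 kb, and the nearest lay 4125 bp away. In replicate 1 a region lay 1550 bp from that start, at rank 19998, and in replicates 2 and 3 the nearest lay 4124 and 4209 bp away. At another start, used by 1 transcript, the pooled list had a region 223 bp away at rank 28511. The closest replicate regions to that start lay 2509, 195 and 1162 bp away, at ranks 26377, 19411 and 29219. The closest IDR summits outside the 5 kb limit were 6011 bp past the gene, at eIF4H1, and 8052 bp upstream of it, near CG9903.

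cac encodes the presynaptic calcium channel that couples the action potential to release. The gene spans 53.8 kb on the - strand of X. Its only IDR summit lay 2725 bp upstream of the first start, in the peak X:11987489-11988184. It was 48 bp from the start of gd, which encodes a serine protease that acts in dorsoventral patterning of the embryo. The signal was 1393 and the rank 954. The peak ranked 1233, 868 and 1179, a mean of 1093 ± 197 (SD, n = 3). At the start used by 16 of 18 cac transcripts, the pooled list had a region 55 bp away at rank 10842. The replicates had regions 113, 93 and 263 bp away, at ranks 12110, 10027 and 17157.

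elav encodes a Hu family RNA-binding protein that controls splicing in neurons and is a standard neuronal marker. The gene spans 14.0 kb on the - strand of X, and its main start site is shared with lncRNA:enrr. The stronger IDR summit lay 260 bp upstream of that start, just past the 250 bp limit, in the peak X:523249-523716. It had a signal of 2199 and rank 541. It ranked 335, 623 and 735, a mean of 564 ± 206 (SD, n = 3), with replicate summits 253, 270 and 273 bp from the start. The other summit lay 605 bp inside the gene, in an intron, with a signal of 1001 and rank 1471. It ranked 1196, 1679 and 1722, a mean of 1532 ± 292 (SD, n = 3). The upstream summit was the stronger in every replicate, and the ranges did not overlap. Both summits also fall in an intron of arg.

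A second elav start, used by 1 transcript, had no IDR summit within 2 kb. The pooled list held a region 14 bp from it, at rank 9386. The replicates placed it 22, 33 and 36 bp away, at ranks 10465, 12757 and 5774. Only replicate 3 had it among the strongest 10000.

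dlg1 encodes Discs large, a MAGUK scaffold of the postsynaptic membrane and of septate junctions. The gene spans 40.1 kb on the + strand of X and has 7 start sites and 21 transcripts. It held or neighboured 5 IDR summits, where 5.15% of coding genes of all lengths had 5 or more. No such share is given for genes as long as dlg1, and the limit of 5 was chosen after seeing the data. Coding genes of 40 kb or more had a mean of 2.86 summits, against 0.943 for those below 2 kb. The peak X:11389200-11390509 had a signal of 12879 and rank 44. Its summit lay between a pair of internal start sites, 193 bp downstream of one used by 6 transcripts and 208 bp upstream of one used by 3. Neither is the start that the annotation marks as canonical, whose nearest IDR summit lay 2287 bp away, at rank 3122. The peak at the internal starts ranked 49, 48 and 36, a mean of 44.3 ± 7.23 (SD, n = 3). The peak was 1310 bp wide, and 4.34% of IDR peaks were at least as wide.

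The other dlg1 summits were much weaker. One 451 bp downstream of the second start had a signal of 529 and rank 3122, with replicate ranks of 2541, 3523 and 3725. Another intronic summit, 1042 bp downstream of a start, had rank 4714 and replicate ranks of 9762, 3500 and 7825. The intronic summit 3547 bp from a start had rank 4809. It ranked 3782, 5000 and 11720, so that its strongest overlapping peak in replicate 3 fell outside the strongest 10000. The last lay 1320 bp upstream of the gene and 100 bp from the start of Tim8, a mitochondrial import factor, at rank 5133. At the first dlg1 start, used by 7 transcripts, the pooled list had a region 42 bp away at rank 8387. The replicates had regions 15, 73 and 26 bp away, at ranks 11004, 8448 and 17828.

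beat-Ia had the strongest peak of the 10 genes and no other IDR summit within its span or 5 kb. The gene spans 31.7 kb on the + strand of 2L and has 1 start site. The peak 2L:16049180-16050402 covered that start, with its summit 202 bp upstream. Its signal was 19875 and its rank 21. In the replicates it ranked 16, 33 and 29, a mean of 26 ± 8.89 (SD, n = 3), and the summits lay 202, 203 and 194 bp upstream. The peak was 1223 bp wide, and 5.12% of IDR peaks were at least as wide. The next IDR summit past the end of the gene was 116646 bp away. Within each replicate list, the signal at beat-Ia exceeded that at dlg1, with 6910 against 2615, 8538 against 6836 and 4541 against 3697.

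**Figure D2:**
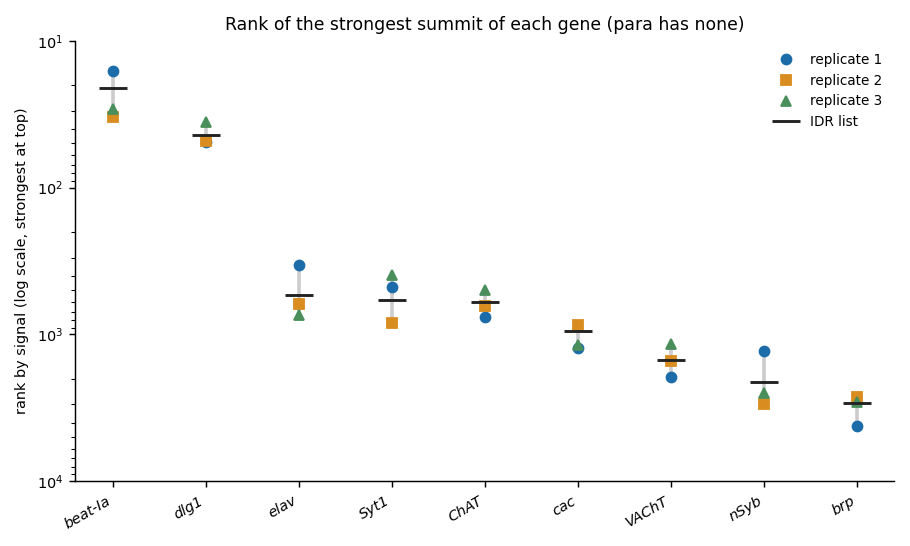
Rank by signal of the strongest summit of each gene, on a log scale with the strongest at the top. Symbols are the 3 replicate lists, grey bars their range and black dashes the IDR list, in which beat-Ia has rank 21 and brp rank 2937. The ranks at beat-Ia and dlg1 lie between 16 and 49 in every replicate, apart from all the others.

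The order of the strongest summits held only in part across replicates. beat-Ia ranked from 16 to 33 and dlg1 from 36 to 49, so the ranges did not overlap with each other or with the rest. elav, Syt1 and the 3′ summit of ChAT had overlapping ranges of 335 to 735, 393 to 832 and 496 to 767 and could not be ordered. cac, from 868 to 1233, lay below these and overlapped the VAChT promoter peak, from 1171 to 1942. nSyb, from 1297 to 2960, overlapped VAChT above it and brp below it, which ranged from 2668 to 4238.

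Among coding genes with a promoter summit, 5 of 3407 had one of the rank of beat-Ia or stronger, beat-Ia included. For dlg1 the number was 11, for Syt1 257 and for ChAT and VAChT 775. The median rank over the 3407 genes was 3052, so all 5 promoter genes described here were on its stronger side. These genes rest on 4 distinct promoter summits, because ChAT and VAChT share theirs. Restricted to the strongest 1000 IDR peaks, promoter summits remained at beat-Ia, dlg1 and Syt1, which is 3 of 10 against 3.61% of coding genes. The genes were chosen with earlier results of these data known, so these comparisons only describe them.

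**Figure D3:**
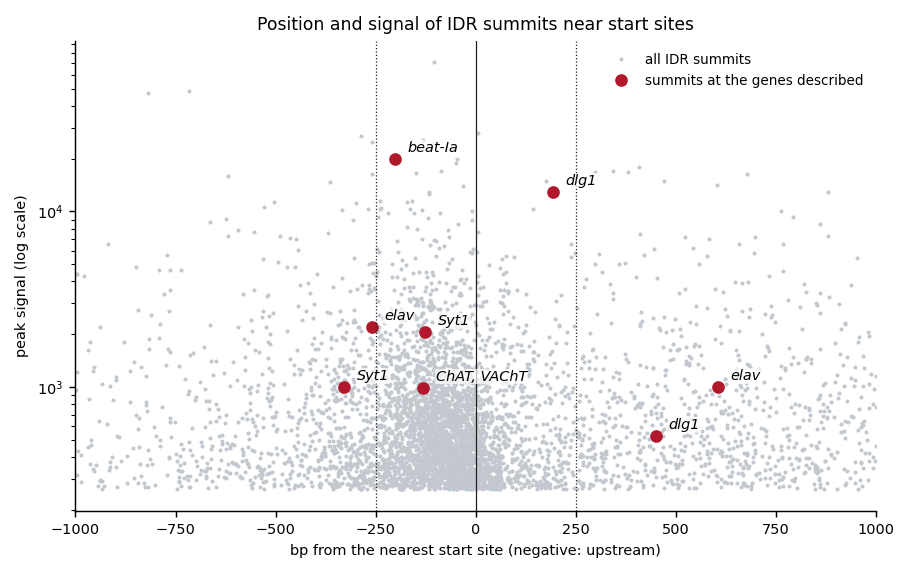
Signal on a log scale against the distance in bp from the nearest start site, with upstream negative, for all IDR summits within 1 kb of a start (grey) and those nearest to a start of the genes described (red). Dotted lines mark 250 bp to either side. The beat-Ia summit at -202 bp and the dlg1 summit at 193 bp are the highest red points, and no red point lies within 100 bp of a start.

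The 4 distinct promoter summits lay 126, 131, 193 and 202 bp from their starts, 3 of them upstream. For 6 of the 9 genes with a summit, at least 1 summit had no start of another gene nearer than its own. The exceptions were nSyb, brp and cac. Among all coding genes with a summit the share was 46.6%. Ties were counted in both, as for ChAT and VAChT, which share a start, and for elav, which shares its start with lncRNA:enrr. Of the 18 summits, 10 were nearest to a start of these genes and 8 were nearer to a start of Bgb, gd, colt, Tim8, CG1888 or CG14302. Inside the genes themselves lay 6 summits, in ChAT, elav and dlg1, and 12 lay outside. The 46.6% is a share of genes and not of summits. No such splits are given here for the summits of other genes, so these counts cannot be set beside them.

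The replicate lists gave a similar count of promoter genes. Among the strongest 10000 peaks, replicate 1 had promoter summits at 5 of the 10 genes against 31.1% of coding genes, and replicate 2 at 5 against 33.3%. Replicate 3 had them at 6 against 30.6%, with elav added through its second start.

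Gene length bears on these counts, since the 10 genes had a median length of 29.7 kb and all coding genes 2.17 kb. The share of coding genes with a summit in the gene or within 5 kb went from 47% below 2 kb to 73.3% at 10 to 20 kb. Among coding genes at least as long as the median of the 10, the share was 68.7%, and 4 of the 5 described genes of that length had one. The promoter share went from 16.1% below 2 kb to 34.4% at 20 to 40 kb, the band that holds ChAT, brp, Syt1 and beat-Ia. On X lay 4 of the 10 genes, against 15.7% of coding genes.

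**Figure D4:**
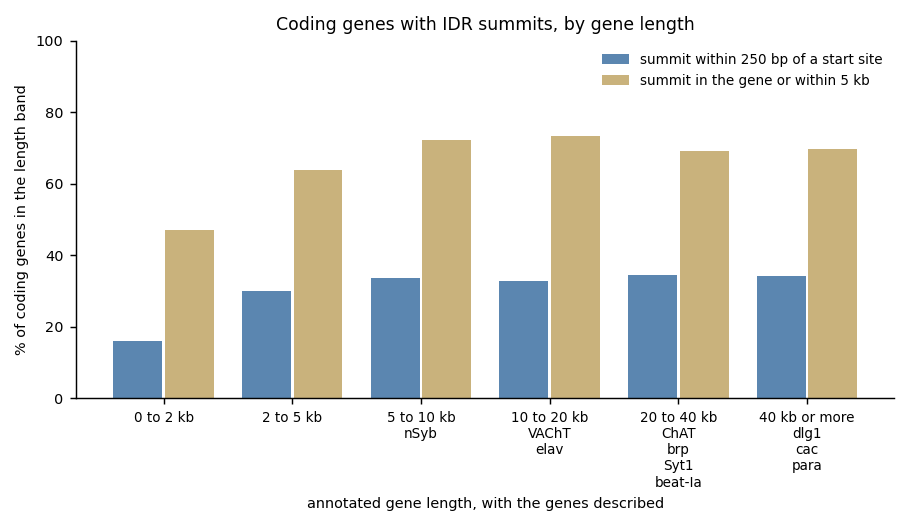
Percent of coding genes with an IDR summit within 250 bp of a start site (blue) or in the gene or within 5 kb (tan), by annotated gene length in kb, with the genes described named under their band. The promoter share goes from 16.1% in the shortest band to 34.3% in the longest.

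Other genes of neuronal signalling were counted by list. Over 169 genes in 11 lists, 38 had a promoter summit (22.5%) and 97 had a summit in the gene or within 5 kb (57.4%). These shares stand beside 24.4% and 57.9% of all coding genes, while the 169 genes had a median length of 23.9 kb. The counts are descriptions of lists chosen with results of these data known.

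In the machinery of release, 4 of 16 genes for vesicle fusion had a promoter summit and 8 had a summit in the gene or within 5 kb. The strongest were at Vha100-1, a vesicular proton pump subunit, at rank 5087 and nearer to the start of dgt6, at Csp, a vesicle chaperone, at rank 5115 and at Tomosyn, an inhibitor of SNARE assembly, at rank 5337. All 3 were far weaker than the Syt1 summits upstream of its start. For the vesicle cycle the counts were 4 and 10 of 13, led by AP-2alpha, a clathrin adaptor subunit (rank 2552), EndoA, endophilin (rank 4376), and shi, dynamin (rank 4600). For the active zone they were 2 and 5 of 6, with unc-104, the kinesin that carries vesicle precursors (rank 4832), and RhoGAP100F, also known as Syd-1 (rank 6414).

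Of 14 genes for transmitter synthesis and transport, 1 had a promoter summit and 7 had one in the gene or within 5 kb. The 1 was ChT, the choline transporter that supplies ChAT, with a summit 172 bp from a start it shares with CG46318, at rank 839. It ranked 892, 1004 and 648 in the replicates, a mean of 848 ± 182 (SD, n = 3). Among 26 transmitter receptors the counts were 1 and 9, with nAChRalpha7, an acetylcholine receptor subunit, at rank 5503. Of 19 genes for voltage-gated channels, 4 had a promoter summit and 12 one within 5 kb. They were led by NaCP60E, a relative of para, at rank 1109 and nearer to RpL41, then by Hk (rank 2654) and sei (rank 4511), subunits of potassium channels.

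Genes of axon guidance had 9 promoter summits among 19, and 14 had one in the gene or within 5 kb. Dscam1, an immunoglobulin receptor with very many isoforms, had the strongest, 89 bp from a start at rank 71. It ranked 46, 90 and 53, a mean of 63 ± 23.6 (SD, n = 3), and was weaker than the dlg1 peak in replicates 2 and 3 and stronger in replicate 1. PlexA, a semaphorin receptor (rank 2618), and robo3, a slit receptor (rank 2711), followed. The relatives of beat-Ia and their partners of the side family had 2 promoter summits among 21, and 6 had one in the gene or within 5 kb. These were at beat-VII (rank 3586) and beat-IIIc (rank 6616).

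**Figure D5:**
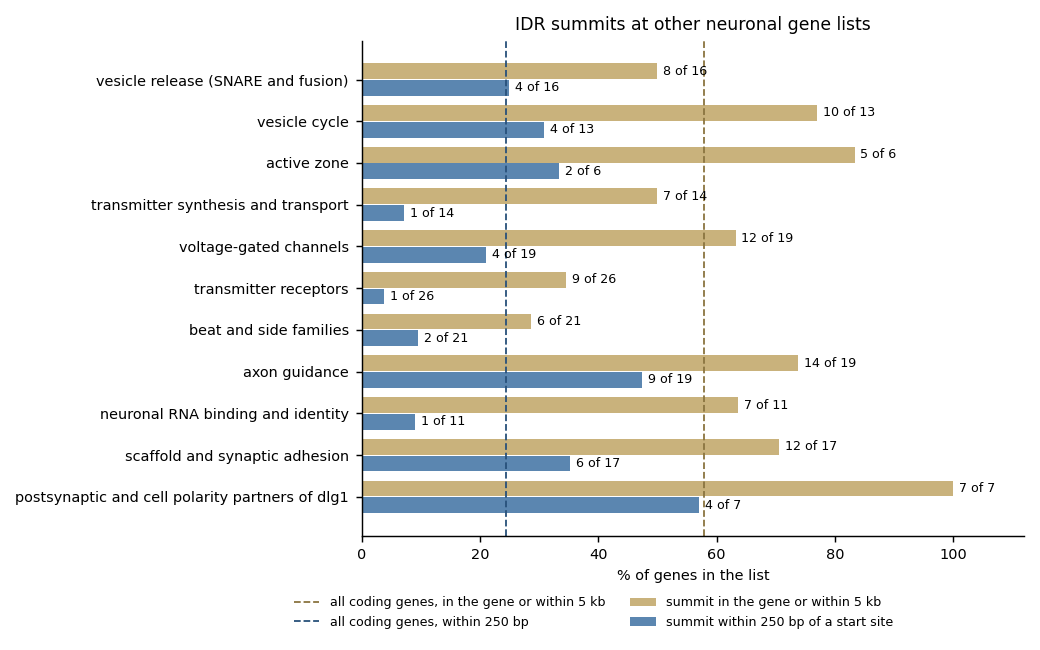
Percent of the genes of each list with an IDR summit within 250 bp of a start site (blue) or in the gene or within 5 kb (tan), with counts beside the bars. Dashed lines are the shares over all coding genes, 24.4% and 57.9%. The lowest promoter shares are 1 of 26 (transmitter receptors), 1 of 14 (transmitter synthesis and transport), 1 of 11 (neuronal RNA binding and identity) and 2 of 21 (beat and side). The highest are 4 of 7 (polarity partners of dlg1) and 9 of 19 (axon guidance). Median lengths are 40.4 kb for axon guidance and 41.4 kb for beat and side. Of coding genes of 40 kb or more, 34.3% have a promoter summit.

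Scaffold and synaptic adhesion genes had 6 promoter summits among 17 and 12 within 5 kb. The strongest were at wnd, a kinase of axon injury signalling (rank 203), Nlg3, a neuroligin (rank 1268), and Dys, dystrophin (rank 1359). The polarity partners of dlg1 had 4 among 7, and all 7 had a summit in the gene or within 5 kb. The strongest promoter summits were at sdt (rank 1133), aPKC (rank 1627) and crb (rank 4399), which organise the apical membrane of epithelia. Of 11 genes of neuronal RNA binding and identity, 1 had a promoter summit, namely pros, a homeobox gene of neuroblast daughter cells (rank 3118), and 7 had one within 5 kb.

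Marker genes of several tissues were counted in the same way. Promoter summits were found at 2 of 9 neuron markers, 7 of which are among the 10 genes, and at 2 of 11 glia, 4 of 16 muscle and 5 of 13 female germline markers. The counts were 1 of 13 for follicle cells, 4 of 8 for fat body, 1 of 9 for gut and 0 of 13 for the eye. These stand beside 24.4% of all coding genes. The lists differ in median gene length, from 0.745 kb for follicle cells to 26.8 kb for neurons, and the promoter share differs with length. The part of each tissue in the summits at the 10 genes was not tested.

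Below the IDR list, the 9 genes with IDR summits and para together had 60 further pairs of a gene and a pooled region. Of these, 27 had a peak in all 3 replicate lists. The same share over all pooled regions below the IDR list is not given here. Regions shared by ChAT and VAChT count for both genes. Not all are separate sites, since a region at cac and another at dlg1 lie in the peak of an IDR summit and match its replicate peaks. dlg1 had 17, 8 of them in all 3 lists, and brp had 10, 6 of them in all 3. beat-Ia had 2 and para 3, none of which was in all 3 lists. Close to the 5 kb limit, the farthest summit inside it was that of cac at 2725 bp, and the nearest outside was 5639 bp past brp.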

How the data were processed

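ChIP-seq peak lists of 3 biological replicates of 1 group were used. Per the deposited lists of derived files, the authors called 30000 peaks and background regions per replicate and for the pool, against a control alignment, and filtered the pooled list to 6659 peaks by IDR. Which aligner and peak caller made them is not given in the sources used here. For each peak the deposited files hold a signal of unstated scale, used only for ranks, and a −log10 q-value, which shares its highest value of 3.94 among 65.8% of IDR peaks. Read depth is unknown. Lists on dm6 were used, and those on dm3 were not used here.

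Summits (1-based) were assigned to the genes and start sites of Ensembl release 115 on the same assembly, Release 6. A replicate peak matched where at least 50% of either peak overlapped, and its rank is that of the strongest match. For the pair of Syt1 summits that share a peak, the closest replicate summit was used. Since there was 1 group, no test was made, and SDs cover what differed between these 3 libraries, whose separate origin is stated only by the word biological. The members, gene lists and words were chosen with earlier results of these data known. All 10 genes were named, with up to 3 promoter genes of each list by signal and the genes whose start was nearer to a summit. The listed symbols RBP, Spinophilin, Trh and nos were not matched. The matching of peaks between lists was tested on simulated data. The check of promoter calls on simulated summits could not fail, so it tests nothing. Python 3.11.15, numpy 2.4.6, pandas 2.3.3 and matplotlib 3.10.9 were used.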

Additional observations from a re-analysis of the deposited data

How the results depend on the processing

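Counts moved with the list and the distance rule. Of the 10 genes, 5 had a promoter summit in the IDR list, 9 in the pooled list as deposited, 3 in the strongest 1000 IDR peaks and 0 where 100 bp replaced 250 bp. With only the start site that the annotation marks as canonical, 4 had one, and dlg1 dropped out. Genes with a summit fell from 9 to 3 when only the gene span was searched. The promoter share over all coding genes was 24.4% in the IDR list and 3.61% in its strongest 1000 peaks. No such share is given for the pooled list, the 100 bp limit, the canonical start or the gene span, so those counts cannot be set beside other genes. The 18 summits became 76 in the pooled list as deposited, 28 in its strongest 10000, 28 and 30 in the strongest 10000 of replicates 1 and 3, 6 in the strongest 1000 IDR peaks, 6 in the gene span only and 40 within 10 kb. Leaving out each replicate in turn, without remaking the IDR list, gave 5 promoter genes, 9 genes with a summit and 17 to 18 summits. Since that list rests on all 3 replicates, these counts do not show how the calls depend on any 1 of them. The distance of the nearest summit was labelled as moved in 20 of 50 recomputed values, by a limit not stated here. The 30 labelled as the same were not all equal to the reported distance. At dlg1 the reported 193 bp was 191 and 189 bp in the strongest 10000 of replicates 1 and 3, both labelled the same. Those labelled as moved included Syt1, from 126 to 131 bp in the strongest 10000 of replicate 2. They also included brp, from 25359 to 3 bp in the pooled list as deposited. A window of 100 bp to either side raised the windows with GAGAG from 4 to 9 and with CAGCTG from 1 to 2. The −log10 q-value gave no order, since the strongest peaks of the 9 genes tied at the top in every replicate. Ranks by the p-value column were not run, because it holds a constant placeholder. The mean replicate ranks did not change in any of the 27 recomputed values, which cover only the strongest summit of each gene. The matching rule did matter at a weaker one, the brp summit 2575 bp past the gene. Its replicate ranks of 7190, 5630 and 2878 became 4238, 2668 and 2878 where the strongest summit within 250 bp was taken. The count of genes with 5 or more summits, the group of genes as long as para, AAGCAG and the closest-summit ranks were chosen after seeing the data. Without read counts, absence from the IDR list at para says only that no region there ranked high enough in these libraries.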

Other observations

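Strong summits also lay between 5 and 10 kb from some of the genes, outside the limit used. The summit 5639 bp past brp had rank 205, that 6446 bp from ChAT and VAChT had rank 465 and that 7093 bp from beat-Ia had rank 492. Each was stronger than any summit within 5 kb of brp, ChAT or VAChT, while at beat-Ia the promoter summit remained the strongest.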
